A study of Mus musculus with 4 samples.

Results

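Imprinted genes outside the distal chromosome 7 domain were examined for trimethylation of histone H3 at lysine 36 (H3K36me3) in cultured mouse myocytes. The 6 genes were Sgce, Peg10, Mest, Peg3, Plagl1 and Grb10. The windows were set by gene and not by a measured value, but the members were chosen with earlier results of these data known. Each gene was given a fixed window on the mouse build mm9, and every island of the mark that overlaps a window was taken. An island is a stretch of the genome that the authors' caller found enriched in reads. This gave 26 of 58326 islands in the wild-type list and 26 of 69798 in the mutant list.

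The samples were FVB myocytes of 2 genotypes, wild type and a mutant with a deleted enhancer that acts on H19 and Igf2 in muscle. Myoblasts came from skeletal muscle of mice at postnatal day 4, were kept for 5 to 10 passages and were differentiated for 24 hours without growth factors. There was 1 H3K36me3 library per genotype, so no value below has a replicate check, no test of genotype was possible, and genotype and library cannot be told apart. The labels do not say how many animals gave the cells of a library. Input DNA of both genotypes was not analysed here, and defining muscle genes were not placed on mm9, so the cell type rests on the labels. As solved from the deposited scores, depth was 2.82 reads per 200 bp for wild-type cells and 3.11 for mutant cells.

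H3K36me3 is laid down by SETD2, which travels with elongating RNA polymerase II, so the mark lies over the bodies of transcribed genes and commonly builds up towards their 3′ ends. An imprinted gene is read from the maternal or the paternal copy alone. The choice is kept by DNA methylation at CpG-rich control regions, some of them near gene starts. Several of these genes act on growth before and after birth and are known to be expressed in an imprinted gene network with H19 and Igf2. Sgce, Peg10, Mest, Peg3 and Plagl1 are paternally expressed, and Grb10 is maternally expressed in most tissues. The lists do not separate the parental copies, and an island can reflect more cells with the mark or more mark per cell.

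The reference sequences at the starts of 2 of the genes are shown because the first part of their windows lies at opposite ends of the cover range. It had cover in both libraries at Mest and none at Grb10. The first part of the Plagl1 window also had none in either library, and its sequence is not shown. The 2 sequences are from RefSeq, GRCm38.p6, 250 bases before to 50 after an annotated start. They are read in the direction of transcription with CpG dinucleotides in capitals. They cannot be placed on the mm9 islands, so they describe the genes and not the islands. Whether either sequence lies in a control region of imprinting was not analysed here. The Mest entry is from chr6:30737800-30738099 (plus strand) and the Grb10 entry from chr11:12037371-12037670 (minus strand).
Mest: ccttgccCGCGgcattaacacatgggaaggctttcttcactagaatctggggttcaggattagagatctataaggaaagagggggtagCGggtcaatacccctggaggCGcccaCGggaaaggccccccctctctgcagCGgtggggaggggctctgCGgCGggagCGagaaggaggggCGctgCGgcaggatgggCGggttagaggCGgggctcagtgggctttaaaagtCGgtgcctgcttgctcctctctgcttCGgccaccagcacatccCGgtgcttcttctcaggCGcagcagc
Grb10: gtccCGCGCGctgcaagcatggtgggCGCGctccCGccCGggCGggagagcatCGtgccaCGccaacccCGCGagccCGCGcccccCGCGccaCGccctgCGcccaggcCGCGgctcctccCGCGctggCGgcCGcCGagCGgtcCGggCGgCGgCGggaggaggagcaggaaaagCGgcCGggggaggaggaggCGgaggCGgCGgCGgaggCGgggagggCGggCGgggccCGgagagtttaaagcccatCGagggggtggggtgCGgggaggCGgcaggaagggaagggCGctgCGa
The dinucleotide CG, which reads the same on both strands, occurs 45 times in the Grb10 sequence and 17 times in the Mest sequence. The count is 26 for Plagl1 and 13 for Peg3, taking the entry with the most CpGs, against a median of 7 over 32544 such sequences, 94.6% of which hold at least 1. Fewer CpGs than in the Grb10 sequence were found in 98.0% of all sequences, and fewer than in Plagl1, Mest and Peg3 in 83.0%, 68.4% and 61.8%. Mest has another annotated start upstream with 8 CpGs, and Grb10 has another downstream with 9. The promoter table matched 4 of the 6 genes; Sgce and Peg10 are named only.

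Mest also carries microRNA miR-335 within its span on GRCm38.p6 and on the same strand, about 52% of the way from its first to its last base. Its mature forms are given with the seed, bases 2 to 8, in capitals.
mmu-miR-335-5p: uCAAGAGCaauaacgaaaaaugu
mmu-miR-335-3p: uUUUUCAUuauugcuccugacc
The seeds of the 2 arms differ. No annotated microRNA of the table lies within the other 5 genes.

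In both libraries 5 of the 6 windows were covered more than the 1 Mb around them, and Plagl1 was covered less. No share over other genes or bins stands beside this count, which describes 6 chosen windows. Sgce and Peg10 lie side by side and share most of their surroundings. A window above the mean of its 1 Mb need not rank high among tiles of its own length there. By cover (wild type, mutant), Peg3 ranked 2 and 2 of 25 tiles, Peg10 17 and 25 of 75, and Grb10 3 and 4 of 7. Plagl1 ranked 10 and 11 of 15, and ranks of Sgce and Mest are given below. Mutant cover of Grb10 equalled its tile median, 24.2%. From the most to the least covered window, the wild-type order was Mest, Peg10, Peg3, Sgce, Grb10 and Plagl1. The mutant order was Mest, Sgce, Peg10, Peg3, Grb10 and Plagl1. Cover is the percentage of a window's length that lies inside islands. Over the 331 kb of the 6 windows, islands covered 130.7 kb (39.5%) in wild-type cells and 128.2 kb (38.7%) in mutant cells. The autosomes as a whole, sequence between genes and unsequenced parts included, were covered to 12.4% and 12.0%. Cover of other genes was not computed. The sums over the 6 windows hide differences in opposite directions. The ratio of mutant to wild-type length was 0.981 over all 6 windows, 0.838 without Sgce and 1.12 without Grb10. The order of the sums also turned with the islands used: among the 50% of islands with the highest scores they were 98.5 kb (wild type) and 115.8 kb (mutant), at equal covered length of the lists 116.1 and 128.2 kb, and with islands within 2 kb joined 143.1 and 146.8 kb. The libraries shared 97.8 kb, a Jaccard index (shared length over length covered in either) of 60.7%, against 58.2% on all autosomes.

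**Figure D1:**
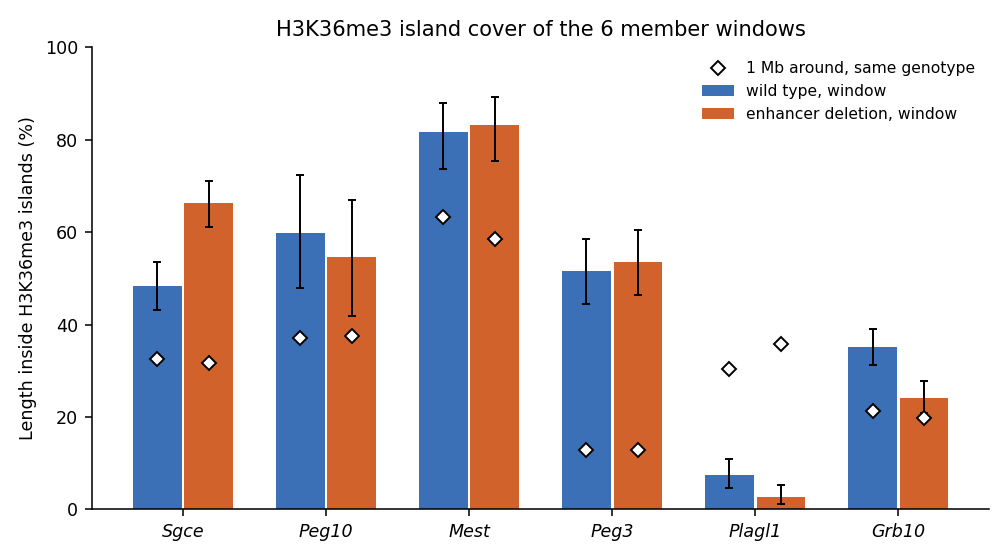
Bars give the percentage of each member window inside H3K36me3 islands in the wild-type and the enhancer-deletion library, error bars the exact binomial 95% interval over 200 bp windows, and diamonds the cover of the 1 Mb around the window in the same library. Bars stand above their diamonds for 5 genes and below them for Plagl1, and the bars of Sgce differ most between the libraries, at 48.4% and 66.2%.

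Between the genotypes, cover was higher in the mutant at 3 windows (Sgce, Mest, Peg3) and lower at 3 (Peg10, Plagl1, Grb10). The excess at Mest and Peg3 was at most 2.0 percentage points, and like the difference at Plagl1 it did not keep its direction in every setting. A difference of 1.5-fold or more was counted as called. Plagl1 was the single window past it, with more cover in the wild type, and none was past it with more cover in the mutant. Such differences are common in the genome. Of autosomal bins of the same length with an island in either list, 26.8% were called with the wild type higher and 20.5% with the mutant higher at the 60 kb of Plagl1. The same shares were 26.9% and 19.9% at the length of Sgce, 27.3% and 25.1% for Peg10, and 27.2% and 23.2% for Mest. They were 27.4% and 21.9% for Peg3, and 25.4% and 18.0% for Grb10. The 1 call of 6 is thus no larger a share than the background. Where a bin holds little cover a small difference in length makes a large fold, so the difference in percentage points is also given for each gene.

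Sgce encodes epsilon-sarcoglycan, a membrane protein of the sarcoglycan complex. Its window, on chromosome 6 from 4624401 to 4697200, was covered to 48.4% (95% interval 43.1% to 53.6%) in wild-type cells and to 66.2% (61.1% to 71.1%) in mutant cells. These intervals, here and below, are exact binomial intervals over 200 bp windows, cover counting error only and are too narrow because neighbouring windows belong to the same islands. The difference of 17.9 percentage points was the largest of the 6 genes. A difference at least as large in the same direction was found in 2.75% of 18686 autosomal bins of that length with an island in either list. Bins with little cover in both lists cannot reach it. The median cover over all autosomal bins of that length was 0.549% (wild type) and 0% (mutant). As a fold it was 1.37, below the 1.5-fold that 19.9% of the 18686 bins reached with the mutant higher. Among the 50% of islands with the highest scores the difference was 33.2 points, and with the window widened by 10 kb on each side 13.1. The 1 Mb around the window, which includes Peg10, was covered nearly alike, to 32.6% in wild-type cells and 31.7% in mutant cells. Mutant cover of the window was the highest of 13 tiles of its length in that 1 Mb, and wild-type cover was the fourth.

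The Sgce islands themselves were a row of short blocks, 11 of 2 to 6.4 kb in wild-type cells and 10 of 1.8 to 9.2 kb in mutant cells. All of them overlapped an island of the other list. The difference in cover thus lay in the length of blocks at shared places. Of the wild-type length 91.5% was also covered in the mutant, and of the mutant length 66.8% was covered in the wild type. Score per 200 bp window, ranked within each list, differed too. The island at 4638801 was above 57.8% of the wild-type and 91.2% of the mutant list. That at 4645601 was above 54.5% and 83.0%, and that ending at 4653600 above 32.8% and 91.9%. The longer mutant islands at 4628001, 4659601 and 4673001 ranked lower than their wild-type counterparts. The cover difference was concentrated in part of the gene. In 4 equal sections along the direction of transcription, from the shared start with Peg10 to the 3′ end, wild-type cover was 51.6%, 20.9%, 64.8% and 56.0%. Mutant cover was 44.0%, 68.1%, 72.5% and 80.2%, so only the first section was covered less in the mutant. In the second section a wild-type gap of 13.8 kb, from 4662401 to 4676200, was narrowed from both sides. The mutant island at 4659601 to 4667600 measured 8 kb where the wild-type island at 4659801 to 4662400 measured 2.6 kb. The mutant island at 4673001 to 4678600 measured 5.6 kb where that of the wild type at 4676201 to 4678400 measured 2.2 kb. In the last section the mutant island at 4628001 to 4637200 was 9.2 kb long, against 4.4 kb for the wild-type island inside it.

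Peg10 is derived from a retrotransposon and is needed for the placenta. It is transcribed away from Sgce from a shared start region. Its window, chromosome 6 from 4697301 to 4710500, was covered to 59.8% (47.8% to 72.4%) in wild-type cells and to 54.5% (41.8% to 66.9%) in mutant cells. The 1 Mb around the window, which includes Sgce, was covered to 37.2% and 37.5%. Of bins of the window's length with an island in either list, 38.8% differed at least as far as the window, with less mutant cover. Most of the cover was 1 island at 4703801 to 4709600, 5.8 kb long, with the same first and last base in both lists. Among all islands, 2.82% of the wild-type list and 2.36% of the mutant list recur in the other list with both ends the same, and this was the 1 such island of the 6 windows. It had the third section of the window fully covered and the last covered to 72.7% in both libraries. Its deposited score per 200 bp window was 6.60 in the wild-type list, above 90.9% of that list, and 7.32 in the mutant list, above 91.6%. Scores depend on depth and were read only within a list.

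The small difference at Peg10 lay at the shared start region. The wild-type island there ran from 4695801 to 4699400 (3.6 kb), across the border of the Sgce and Peg10 windows. The mutant island ran from 4697401 to 4698800 (1.4 kb), within Peg10. Between this and the 5.8 kb island, gaps of 4.4 kb in wild-type cells and 5 kb in mutant cells held no island. Among the 50% of islands with the highest scores, and with islands of at least 2 kb, the mutant island dropped out and the difference was -15.9 points (mutant minus wild type). The Sgce side of the start region was bare for 8 kb in mutant cells, from 4689201 to 4697200. Most of that stretch was bare in wild-type cells too, from 4689201 up to the island that starts at 4695801.

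Mest encodes a protein of the alpha/beta hydrolase fold and is named as a mesoderm-specific transcript. Its window, chromosome 6 from 30680001 to 30705000, had the highest cover of the 6 in both libraries, 81.6% (73.7% to 88.0%) in wild-type cells and 83.2% (75.5% to 89.3%) in mutant cells. The surroundings were also densely marked, 63.2% in wild-type cells and 58.5% in mutant cells, so the window exceeded them by 18.4 and 24.7 percentage points. It was eighth and ninth of 39 tiles of its length in its 1 Mb, so several stretches nearby were covered more. On GRCm38 its neighbours are Cep41 and Copg2.

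The Mest islands held the highest score of the 6 windows in both lists. In the wild type an island at 30681601 to 30691200 (9.6 kb) and another at 30692001 to 30702800 (10.8 kb) were parted by 0.8 kb. The mutant had an island of 20.4 kb from 30682001 to 30702400, and another at 30677401 to 30680400 (3 kb, score 48.5) reached 0.4 kb into the window. The longer island was longer than 98.8% of mutant islands, and its score of 794.9 was above 99.2% of that list. The score per 200 bp window was 12.2 in the second wild-type island, above 99.2% of wild-type islands, and 6.43 in the first, so within that library the signal was higher towards the 3′ side. The libraries shared 19.6 kb, a Jaccard index of 90.7%. The difference of 1.6 points came from those 0.4 kb. It was reached or passed with the mutant higher in 41.8% of bins of the window's length with an island in either list. It was 0 points among the 50% of islands with the highest scores, where the shorter island dropped out, and it turned to -1.6 points (mutant minus wild type) when islands within 2 kb were joined and to 5.78 with the window widened by 10 kb on each side.

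Peg3 encodes a large zinc finger protein, also called PW1, that is expressed in muscle progenitors. Its window on chromosome 7, from 6650001 to 6690000, was covered to 51.5% (44.3% to 58.6%) in wild-type cells and to 53.5% (46.3% to 60.6%) in mutant cells. The 1 Mb around it was covered to only 12.9% in both. The window thus stood furthest above its surroundings of the 6, 3.99-fold in wild-type cells and 4.16-fold in the mutant. Of 50 bins of 20 kb in that 1 Mb, 30 held no island in wild-type cells and 30 held none in the mutant. On GRCm38 the gene lies between Zim1 and Usp29, with olfactory receptor genes beyond Zim1.

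The 3′ side of Peg3 carried the longest island, from 6658001 to 6672200 (14.2 kb) in wild-type cells and from the same base to 6670000 (12 kb) in mutant cells. The third section of the window in the direction of transcription was fully covered in both libraries. Towards the start, wild-type cover was 64.0% in the second and 22.0% in the first section, and mutant cover was 48.0% and 46.0%. The mutant value of the first section included an island at 6684801 to 6688200 (3.4 kb) with no counterpart in the wild type. Its score of 57.5 was above 54.5% of the mutant list. That island was the whole 3.4 kb that only the mutant covered, against 2.6 kb that only the wild type covered. The direction at Peg3 rested on it, and also on a mutant island of 1 kb at 6670801 to 6671800 with a score of 34.9. The 1 kb island lay wholly inside wild-type cover. The difference was 2.0 points, reached or passed in 38.9% of bins of the window's length with an island in either list. Among the 50% of islands with the highest scores, and with islands of at least 2 kb, the 1 kb island dropped out. The difference then became -0.5 points (mutant minus wild type).

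Plagl1 encodes the zinc finger transcription factor ZAC1, which is known to act on other imprinted genes including H19 and Igf2. It was the least covered window. On chromosome 10 from 12800001 to 12860000, islands covered 7.33% (4.65% to 10.9%) in wild-type cells and 2.67% (1.16% to 5.19%) in mutant cells. The 1 Mb around it was covered to 30.3% and 35.7%, so the window held 0.242 and 0.0746 times the cover of its surroundings. Of all autosomal bins of its length, those without an island included, 63.0% in wild-type and 55.7% in mutant cells held less. The median such bin held 0% in both lists.

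The islands over Plagl1 were few and weak. The wild type had 1 at 12822001 to 12823800 (1.8 kb, score 32.1) and 1 at 12843601 to 12846200 (2.6 kb, score 30.6), and the lowest score of that list was 30.3. The mutant had 1 at 12847001 to 12848600 (1.6 kb, score 25.9), above 9.9% of its list, whose lowest score was 22.6. None overlapped an island of the other library. The first section of the window, at the 5′ side, held none in either. The 2.75-fold difference between the libraries therefore rested on 3 islands near the limits of their lists. Of bins of the window's length with an island in either list, 30.0% lay at or below its -4.67 points (mutant minus wild type). At equal covered length of the lists the direction turned, with 0% in wild-type cells and 2.67% in mutant cells.

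Grb10 encodes an adaptor protein that dampens signalling from the insulin and insulin-like growth factor receptors. Its window, chromosome 11 from 11825001 to 11945000, was covered to 35.2% (31.3% to 39.1%) in wild-type cells and to 24.2% (20.8% to 27.8%) in mutant cells. The surroundings were covered to 21.3% and 19.7%. A difference of 11.0 points or more with less mutant cover was found in 5.97% of 12940 bins of that length with an island in either list. Bins with little cover in both lists cannot reach it. The median cover over all autosomal bins of that length was 3.17% (wild type) and 2.33% (mutant). As a fold it was 1.46, below the 1.5-fold that 25.4% of the 12940 bins reached with the wild type higher. Of the 5 genes that had any shared island, Grb10 had the lowest Jaccard index, 41.3%.

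The Grb10 cover had a 3′ part common to both libraries and a middle part seen in the wild type alone. In 4 equal sections along transcription, wild-type cover was 0%, 55.3%, 29.3% and 56.0%, and mutant cover 0%, 0%, 23.3% and 73.3%. The second section held 5 wild-type islands between 11888001 and 11914800, 16.6 kb in all and each of 1.4 to 5.4 kb, and no mutant island. Their scores were 30.4 to 56.0, above 0.262% to 43.3% of the wild-type list, so all 5 lay in its lower part. At the equal covered length of the lists, which removes the 4330 lowest-scoring wild-type islands, the difference (mutant minus wild type) went from -11.0 to -4.17 points, and among the 50% of islands with the highest scores to -3.83.

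Towards the 3′ end the mutant covered more of Grb10. An island at 11849001 to 11854200 (5.2 kb) had no wild-type counterpart, with a score of 56.9. The wild-type island at 11826201 to 11838600 (12.4 kb) was met by 3 mutant islands of 3, 2 and 5.6 kb, of which the last ended at the same base. The top-scoring islands of the window lay in the third section, at 11864401 to 11873200 in the wild type (8.8 kb, score 266.0) and at 11869001 to 11873000 in mutant cells (4 kb, score 226.6). The latter had 11.3 score units per 200 bp window, above 98.6% of mutant islands. Towards the 5′ side the window was bare. No island lay between 11914801 and the end of the window in the wild type (30.2 kb), or between 11873001 and the end of the window in the mutant (72 kb). The next island beyond the window was 188.4 kb away in wild-type cells and 181.6 kb in mutant cells.

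**Figure D2:**
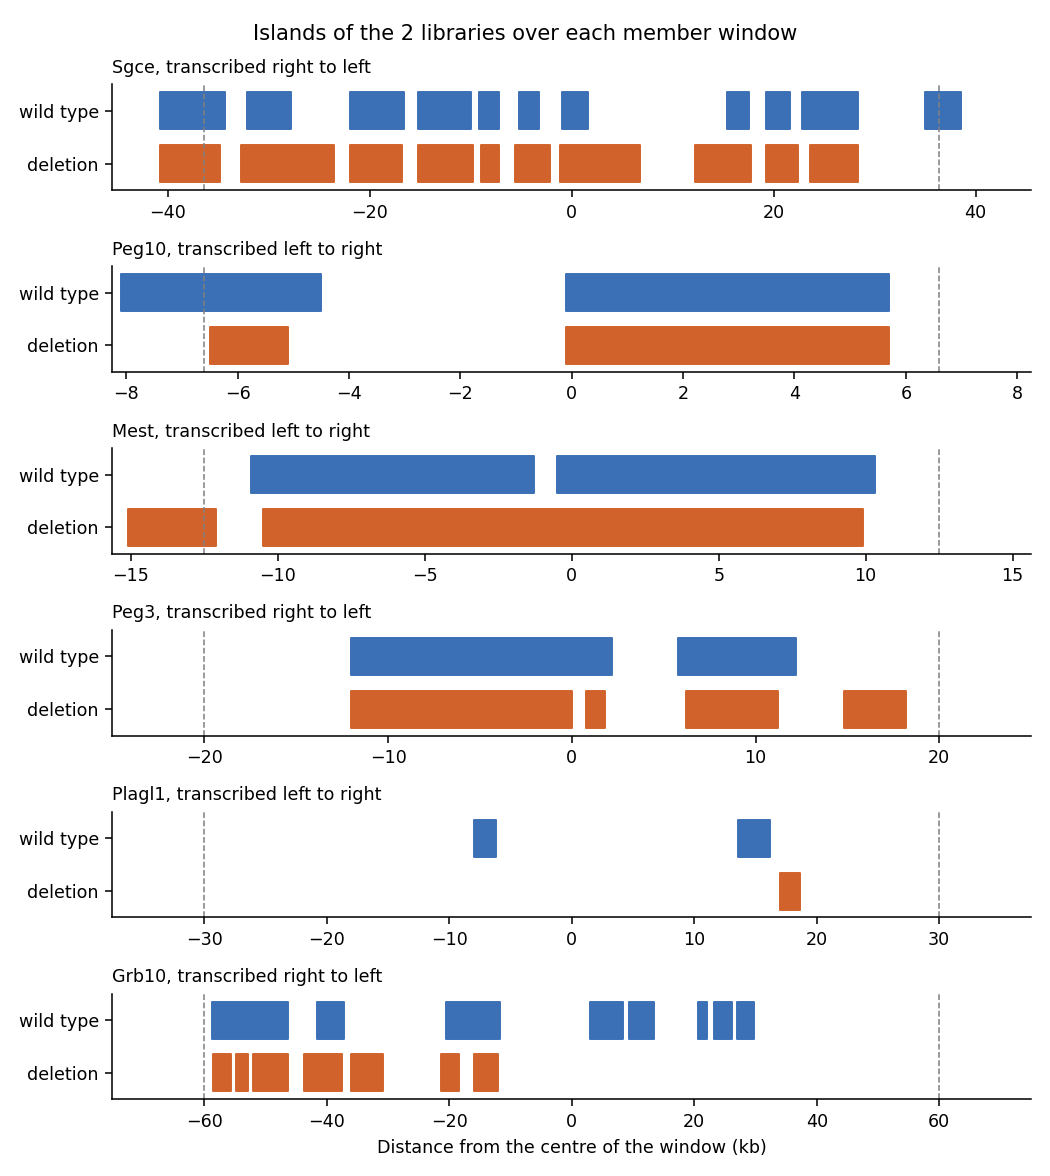
Blocks are the islands of the wild-type (upper row) and enhancer-deletion (lower row) library by distance in kb from the centre of each member window, and dashed lines mark the window's ends. The 5.8 kb island of Peg10 has the same ends in both rows, the 5 wild-type islands to the right of the centre of Grb10 have no block beneath them, and no Plagl1 block overlaps one of the other row.

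Sections 3 and 4 held more cover than sections 1 and 2 at 6 of 6 windows in wild-type cells and at 5 of 6 in mutant cells. The exception was Mest in mutant cells, with 79.2% on the 3′ side and 87.2% on the 5′ side. The sides were close in wild-type cells at Mest, with 82.4% and 80.8%, and at Plagl1, with 8.67% and 6%. The widest lean was at Peg10, with 86.4% on the 3′ side in both libraries against 33.3% (wild type) and 22.7% (mutant) on the 5′ side. At Grb10 the 3′ side held 42.7% and 48.3%, and the 5′ side 27.7% and 0%. No share over other genes stands beside these counts, which describe 6 chosen windows. Windows of Mest, Peg3, Plagl1 and Grb10 are longer than the genes on GRCm38, so their sections also hold flanking sequence.

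**Figure D3:**
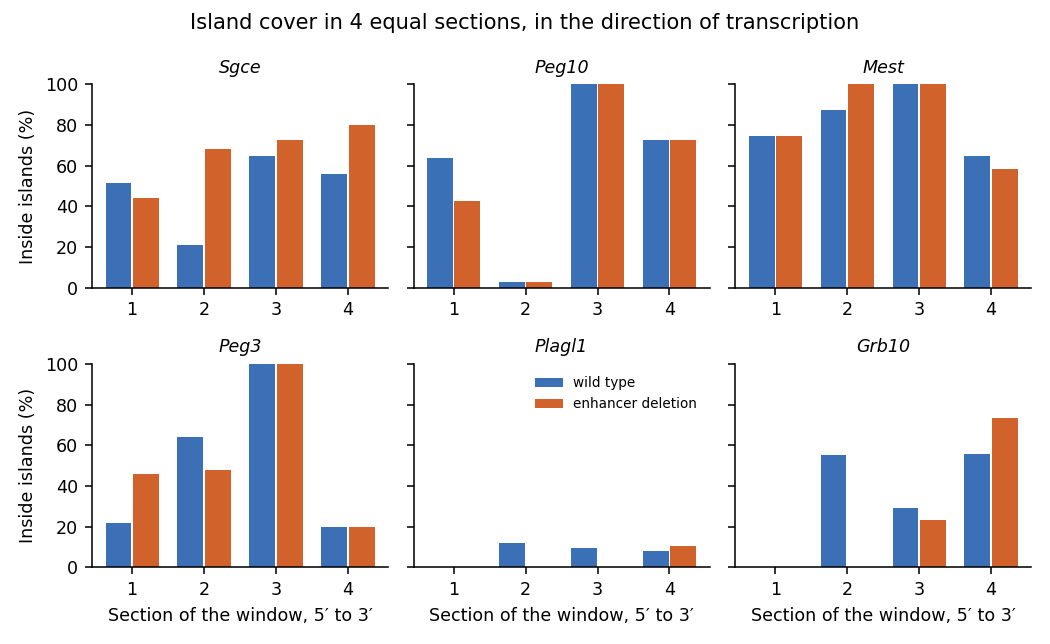
Bars give the percentage of each of 4 equal sections of the window inside islands, numbered in the direction of transcription, in the wild-type and the enhancer-deletion library. The second section differs most at Sgce (20.9% and 68.1%) and at Grb10 (55.3% and 0%), and the third section is fully covered in both libraries at Peg10, Mest and Peg3.

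The match of the islands between the libraries differed among the genes. Of the 26 wild-type islands 19 had a counterpart with at least 1 bp in common, and of the 26 mutant islands 23 had one. In the whole lists the shares were 82.0% and 74.3%. The 7 wild-type islands without a counterpart lay at Grb10 (5) and Plagl1 (2). The 3 such mutant islands lay at Peg3, Plagl1 and Grb10. The Jaccard index was 91.1% at Peg10, 90.7% at Mest, 75.0% at Peg3, 62.9% at Sgce, 41.3% at Grb10 and 0% at Plagl1. The 7 wild-type islands without a counterpart lay above at most 43.3% of their list by score. Of the 3 such mutant islands, those at Peg3 and Grb10 lay above 54.5% and 54.0% of theirs, and that at Plagl1 above 9.9%.

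**Figure D4:**
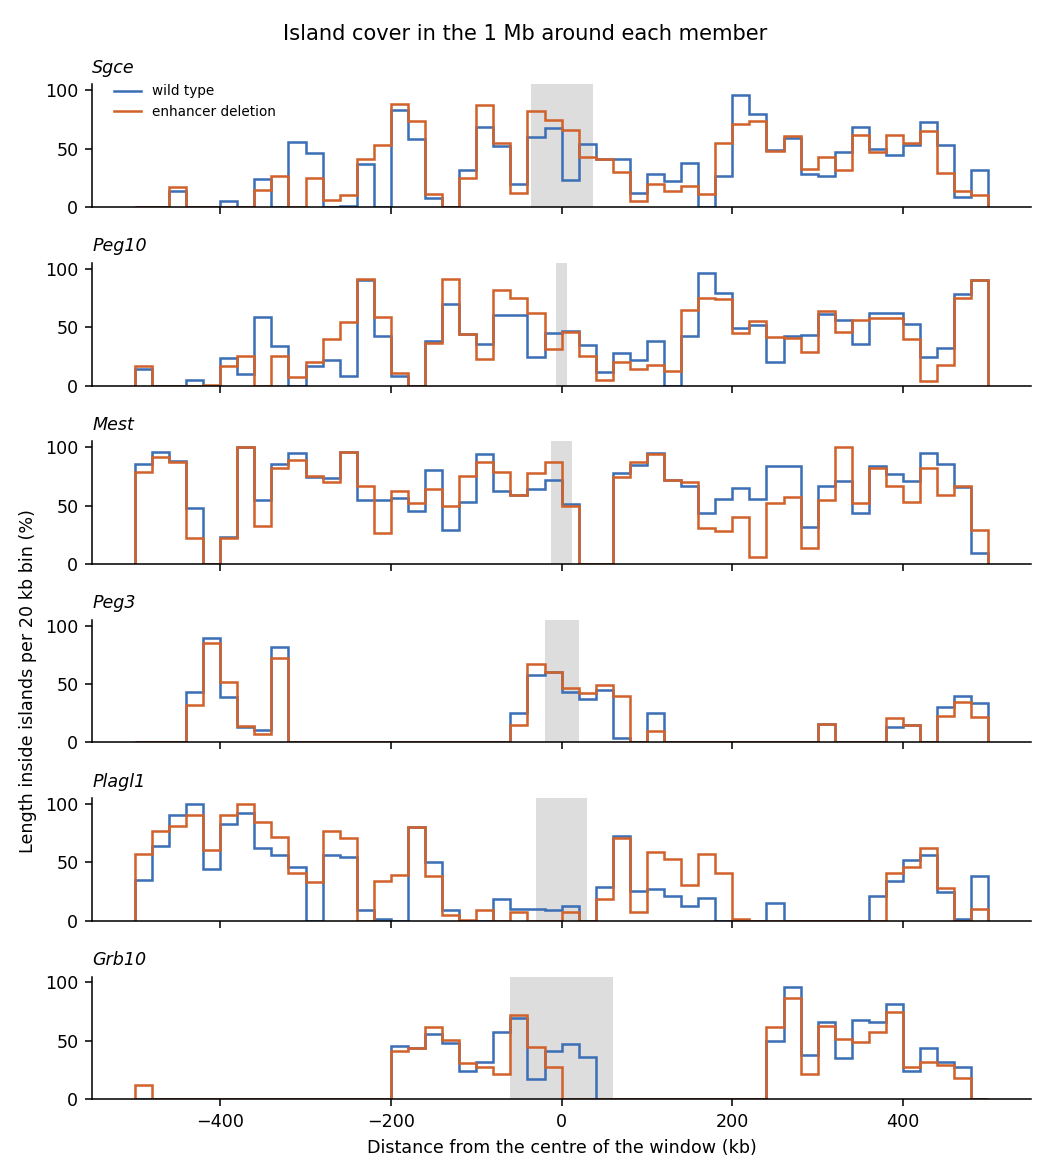
Lines give the percentage of each 20 kb bin inside islands in the 1 Mb centred on each member window, in the wild-type and the enhancer-deletion library, and the grey band is the window. Peg3 stands in a 1 Mb where 30 of 50 bins hold no island in each library, Mest in one where 39 wild-type and 35 mutant bins are covered to at least 50%, and the Plagl1 band lies in a trough.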

How the data were processed

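H3K36me3 was measured by chromatin immunoprecipitation and sequencing, with libraries made from 10 ng of DNA per the labels' protocols. The submitters' processing notes name Bowtie 1.0.0, SICER 1.1 and build mm9; their roles and settings are not given in the sources used here, apart from the window of 200 bp and gap of 600 bp in the deposited names. Each deposited list gives a chromosome, start, end and island score by the authors. The score sums a Poisson term over windows and grows with depth and length, so it was read only within a list.

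Covered length was computed per window with Python 3.11.15, numpy 2.4.6, pandas 2.3.3 and scipy 1.17.1, and figures with matplotlib 3.10.9. Coordinates count from 1. The 1 Mb around a window is centred on it and leaves it out. Bins of equal length tile the 19 autosomes from their first base, unsequenced parts included. Depth was solved from the scores of 8 wild-type and 14 mutant islands of 1 window, taken as negative natural logs of Poisson probabilities. Covered and shared length were exact in 500 of 500 simulated windows. Intervals are exact binomial 95% (Clopper-Pearson). All 6 genes are named by rule. The members and lists were chosen with earlier results of these data known. Sections, bins as far apart as a gene and 100 kb stretches were added after values were seen. Other imprinted genes were not placed, since no mm9 annotation was used. Gene neighbours and sequences are from RefSeq, GRCm38.p6. Alternatives were the upper 50% of each list by score, islands of at least 2 kb, lists of equal covered length on the autosomes, islands within 2 kb joined, 2 Mb around, the window included in its surroundings, and windows widened by 10 kb.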

Additional observations from a re-analysis of the deposited data

How the results depend on the processing

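Of 191 alternative values of 36 results, 143 stayed within counting error or the limits set for counts, 44 moved and 4 changed direction. Sgce (more cover in the mutant), Peg10 and Grb10 (less) kept their direction in the 5 settings that alter islands or windows. The 4 turns at single genes were Mest with islands joined (-1.6 points, mutant minus wild type), Peg3 in the upper 50% by score and with islands of at least 2 kb (-0.5 in both), and Plagl1 at equal covered length (2.67). The number of windows with more cover in the mutant was 1 in the upper 50% by score. The 5 windows above their surroundings stayed 5 in the 6 settings run for that count, which leave out the widened windows.

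In the upper 50% by score, cover was 33.0% at Sgce (wild type), 0% at Plagl1 in both libraries, and 21.3% (wild type) and 17.5% (mutant) at Grb10. The order of summed cover turned in 3 settings. In this one it was 98.5 kb in wild-type cells and 115.8 kb in mutant cells, and the Jaccard index 56.3%. At equal covered length, wild-type cover was 0% at Plagl1, 28.3% at Grb10 and 116.1 kb in sum (mutant 128.2 kb), and the Jaccard index was 64.7%. With islands of at least 2 kb, Plagl1 was covered to 4.33% in wild-type cells and 0% in mutant cells. With islands joined, cover was 58.0% and 81.6% at Sgce and 91.2% and 89.6% at Mest (wild type, mutant), and the sums were 143.1 and 146.8 kb. With windows widened, cover was 40.4% and 33.7% at Peg10 and 60.4% and 66.2% at Mest.

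No replicate was left out, since each genotype has 1 library. No paired analysis was possible because no result comes from a test. What depth limits was not tested; the islands of Plagl1 and 3 of the 5 in the middle of Grb10 score close to the lowest of their lists.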

Other observations

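In the 1 Mb around each window, the 100 kb stretch that differed most in each direction was looked up after the data were seen. Between 100 and 200 kb to the right of the centre of the Plagl1 window, cover was 16.2% in wild-type cells and 48.2% in mutant cells, the largest such excess in the mutant around any of the 6 genes. Between 180 and 280 kb to the right of the centre of the Mest window it was 68.6% in wild-type cells and 36.8% in mutant cells, the largest excess in the wild type. At Grb10 the stretch furthest in favour of the wild type lay partly over the window, from 20 kb left to 80 kb right of its centre, with 24.8% (wild type) and 5.6% (mutant). Around Peg3 it was 23.8% and 19%, the smallest of the 6 in that direction. Which genes lie under the stretches beside Plagl1 and Mest on mm9 was not analysed here, and their differences were not tested.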
